A study of Mus musculus with 3 samples.

Results

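The 8 acute-phase protein genes Saa1, Saa2, Saa3, Hp, Lcn2, Orm1, Serpina3n and Ptx3, out of 32285 genes in the count matrices, were followed across the cell classes of mouse dorsal skin. They were chosen by name, and the set was picked because Saa3, Hp and Lcn2 were higher in fibroblasts of skin treated with ruxolitinib. The values of Rux fibroblasts are therefore a description of what chose the genes. The data are droplet-based single-cell transcriptomes, with 1 library for each of 3 conditions, from wild-type C57BL/6J mice labelled female. The age given is 8 weeks, which the paper states for the mice as bought. Irradiation then ran for 12 weeks, so irradiated mice were older when skin was taken. The CON library came from skin that was not irradiated and received vehicle. The UV library came from skin that over 12 weeks received UVA at 0.60 mW/cm2 together with UVB at 3.5 mW/cm2 on alternate days, with vehicle. The Rux library came from skin given the same irradiation, each time followed by a 1.5% ointment of ruxolitinib, an inhibitor of the kinases JAK1 and JAK2. Skin was taken the day after the last exposure, and the number of mice in a library was not stated.

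The acute-phase response is the change in secreted defence proteins that follows injury or infection. It is best known in the liver, where interleukin-6 acts through JAK kinases and STAT3, and interleukin-1 through NF-kB, together with C/EBP factors, to raise transcription of serum amyloid A, haptoglobin and other plasma proteins. Many of these genes are also transcribed outside the liver, in macrophages, neutrophils, epithelia, adipocytes and stromal cells, where their products bind lipids, haemoglobin, iron-carrying siderophores, proteases or microbial surfaces.

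The 3 serum amyloid genes of the set lie close together on chromosome 7 (GRCm38, GENCODE M21). Saa3 occupies chr7:46711998-46715700 on the minus strand, Saa1 chr7:46740497-46742980 on the minus strand and Saa2 chr7:46751790-46754313 on the plus strand. The bases before their RefSeq starts (GRCm38.p6) are shown because these genes differed in how they stood in the 3 libraries. Another reason is that Saa1 and Saa2 are near copies of each other. Bases inside a GENCODE exon of the gene are left out. Saa1 is therefore shown up to base −1 before the start, Saa2 up to −44 and Saa3 up to −25. The sequences run 5′ to 3′ on the strand of the gene, and capitals mark letters that match the C/EBP motif TTGCNNAA on either strand.
Saa1, chr7:46742981-46743230: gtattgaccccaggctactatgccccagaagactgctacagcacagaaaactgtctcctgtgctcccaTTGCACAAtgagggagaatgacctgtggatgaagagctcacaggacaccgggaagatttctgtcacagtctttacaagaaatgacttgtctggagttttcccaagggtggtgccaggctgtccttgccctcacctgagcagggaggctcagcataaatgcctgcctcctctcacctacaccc
Saa2, chr7:46751583-46751789: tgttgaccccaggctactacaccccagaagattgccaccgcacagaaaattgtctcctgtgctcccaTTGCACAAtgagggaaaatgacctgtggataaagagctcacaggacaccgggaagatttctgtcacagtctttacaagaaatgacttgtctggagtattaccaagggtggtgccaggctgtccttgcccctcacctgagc
Saa3, chr7:46715701-46715926: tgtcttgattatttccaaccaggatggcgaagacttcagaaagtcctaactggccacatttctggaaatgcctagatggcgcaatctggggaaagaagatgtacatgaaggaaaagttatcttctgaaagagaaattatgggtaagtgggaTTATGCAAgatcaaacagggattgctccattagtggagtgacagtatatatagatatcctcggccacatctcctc
Over the 250 bases before their starts, Saa1 and Saa2 were identical at 94.8% of aligned positions, and Saa1 and Saa3 at 50.2%. Promoter entries were matched for 6 of the 8 genes, all but Hp and Orm1. The C/EBP letters stood in 5 of the 6, in Saa1, Saa2, Saa3, Lcn2 and Ptx3, against 9.57% of 32536 RefSeq promoters of the same length. Saa1 and Saa2 held the same letters, from −182 and −183, so these 2 near copies do not count separately. The Lcn2 match began at −216, outside the longest run of its window without a GENCODE exon, −111 to −59. Neither the letters TTCNNNGAA, searched for STAT factors and present in 7.04% of promoters, nor the NF-kB motif, present in 7.28%, stood in these windows. Motifs were searched on both strands, and a match is a description of letters, not a binding site.

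Gene counting bears on a few of these genes. The last 500 bases of the Saa1 and Saa2 transcripts were 92.6% identical, yet shared no window of 90 bases, so reads of that length could be told apart. Of the windows in the Orm1 transcript end, 16.3% also occurred in Orm2, which makes Orm1 uncertain. Ptx3 (chr3:66219910-66225805) overlaps Veph1 on the other strand. The other genes lie at chr8:109575128-109579172 (Hp), chr2:32384633-32388252 (Lcn2), chr4:63344560-63348163 (Orm1) and chr12:104406729-104414329 (Serpina3n), each without an overlapping gene.

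The 3 matrices held 36868 cells, of which 30307 were kept, with median depths of 7530 to 9443 UMIs per cell (a UMI is a molecular tag that counts 1 captured transcript). The libraries went against their label on sex, with Ddx3y from the Y chromosome at 110.2 to 121.5 CPM and Xist at 0.0925 to 0.121 CPM in the 3 libraries. The libraries shared 79 barcodes among kept cells. Cells were clustered without the 8 genes and without the other listed acute-phase genes, and 18 classes were named "X-like" from their markers, while 6 clusters with 12.0% of the cells stayed unnamed. FB-like cells, named from Col1a1, Col3a1, Pdgfra, Dcn and Lum, numbered 3363 in CON, 5016 in UV and 4968 in Rux. Values are UMIs summed over the cells of a class per 1000000 UMIs of that class (CPM), with exact 95% intervals. With 1 library per condition no test across samples was possible, and every interval covers counting error only and not the spread between mice. Where the UMIs of a gene sat in few cells, the interval is too narrow even for that.

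In FB-like cells Saa3 and Hp differed most between the libraries, Lcn2 and Serpina3n followed the same order of CON, UV and Rux, and Ptx3 was highest in UV. Counting sizes of at least 2-fold, 4 of the 8 genes (Saa2, Hp, Lcn2, Ptx3) were higher and 2 (Saa1, Orm1) lower in UV than in CON, where 2.37% and 2.19% of the 8401 genes that averaged 10 CPM or more lay that far apart in the same directions. In Rux against UV, 5 were higher (Saa1, Saa2, Saa3, Hp, Lcn2) and 0 lower, against 0.722% and 1.66% of 8173 genes. In Rux against CON, 6 were higher, the same 5 and Serpina3n, and 1 was lower (Orm1), against 2.21% and 3.55% of 8367 genes. The Rux shares follow from how the genes were chosen. The UV and CON libraries also entered the comparisons that chose them. Only 5 of the 8 genes passed the 10 CPM minimum in these comparisons, since Saa1, Saa2 and Orm1 stayed under it.

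**Figure D1:**
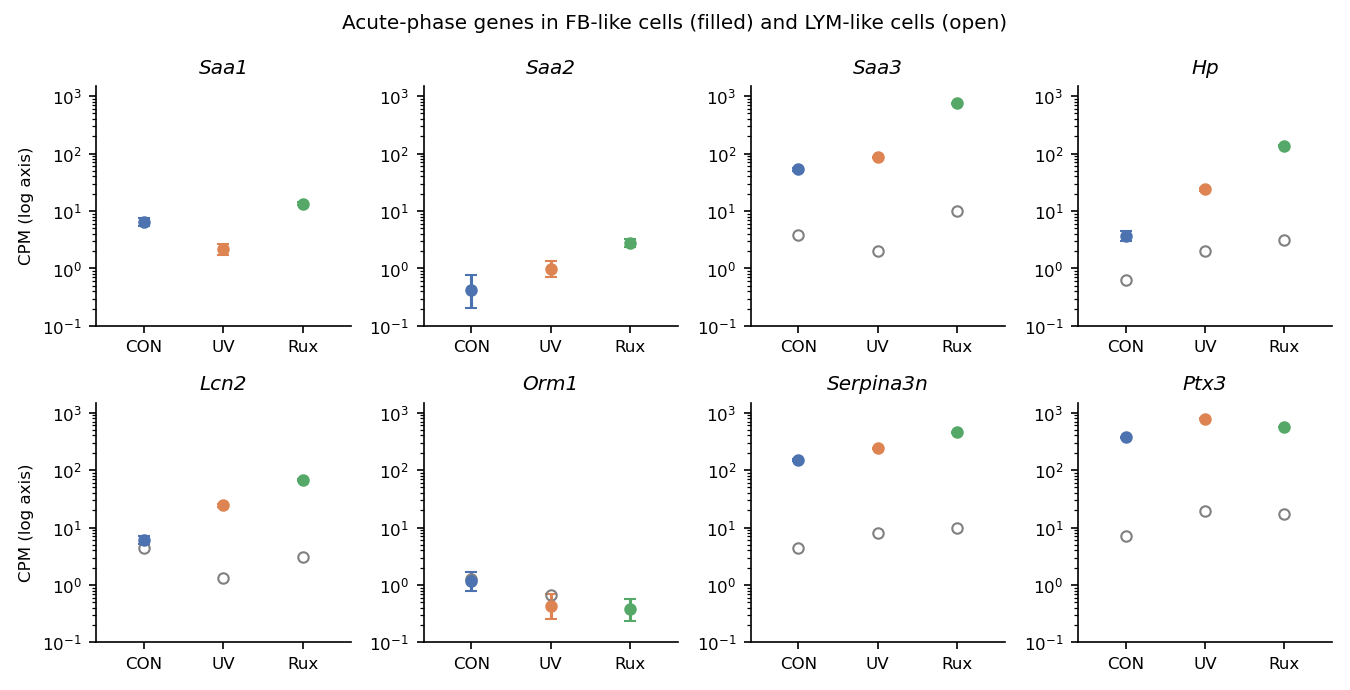
Level of each acute-phase gene in FB-like cells (filled points, CPM on a log axis, bars are exact 95% counting intervals) in the CON, UV and Rux libraries, with LYM-like cells as open points where a UMI was found. Saa3 reached 749 CPM in Rux against 85.9 CPM in UV and 53.3 CPM in CON, and Orm1 stayed near 1 CPM or lower in all 3.

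Saa3 encodes a serum amyloid A made mainly outside the liver. In FB-like cells it had 53.3 CPM in CON (50.4 to 56.3), 85.9 CPM in UV (83.0 to 88.8) and 749 CPM in Rux (741 to 756). The log2 ratio was 0.69 for UV over CON (0.60 to 0.78), 3.12 for Rux over UV (3.07 to 3.18) and 3.81 for Rux over CON (3.73 to 3.89). The intervals of the 3 libraries did not overlap. Very few cells carried these UMIs in CON and UV. In CON, 6 cells held at least 50% of the Saa3 UMIs of FB-like cells, and the same took 24 cells in UV and 46 in Rux. Without the 1% of FB-like cells with the most Saa3 UMIs in each library, the level was 2.85 CPM in CON, 27.0 CPM in UV and 359.6 CPM in Rux. The log2 ratio for UV over CON went from 0.69 to 3.23. This cut took 34 of 83 cells with a Saa3 UMI in CON, 51 of 292 in UV and 50 of 936 in Rux. It thus weighed most on CON, and 3.23 is not read as a larger difference.

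The share of FB-like cells with at least 1 Saa3 UMI was 2.47% in CON (1.97 to 3.05), 5.82% in UV (5.19 to 6.51) and 18.8% in Rux (17.8 to 19.96). FB-like cells were deeper in Rux, with a median of 10067 UMIs against 7472 in UV and 6193 in CON. After thinning every cell to 2000 UMIs, which kept 3223 of 3363 CON, 4803 of 5016 UV and 4847 of 4968 Rux cells, the shares were 1.67%, 3.62% and 9.59%, in the same order. In LYM-like cells, T lymphocytes by their markers and taken here as a class that lacks the gene, the shares were 2.39%, 1.27% and 6.23% at median depths of 5430, 5366 and 5614 UMIs, and 0.621%, 0.367% and 2.45% after thinning. The share of CON FB-like cells was close to that background before thinning and above it after, and the shares in UV and Rux lay above it both ways. The LYM-like level of Saa3 was itself highest in Rux, at 9.83 CPM against 2.00 CPM in UV and 3.85 CPM in CON.

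Saa1 and Saa2 encode the circulating serum amyloids that ride on high-density lipoprotein. Both were scarce in FB-like cells. Saa1 had 6.52 CPM in CON (155 UMIs), 2.17 CPM in UV (85 UMIs) and 13.4 CPM in Rux (752 UMIs), so the Rux level was the highest and the UV level the lowest. In CON, 64 and 35 of the 155 UMIs came from 2 cells. Saa2 had 10, 39 and 155 UMIs in CON, UV and Rux, which are 0.421, 0.994 and 2.77 CPM, and 20 of the 39 UMIs in UV came from 1 cell. LYM-like cells held no UMI of either gene in any library, which allows up to 1.92 CPM in CON, 2.00 CPM in UV and 1.34 CPM in Rux.

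Hp encodes haptoglobin, which binds free haemoglobin. Its level in FB-like cells was 3.70 CPM in CON (2.97 to 4.56), 24.1 CPM in UV (22.6 to 25.7) and 137 CPM in Rux (134 to 140.4). The log2 ratio was 2.69 for UV over CON (2.38 to 3.03) and 2.51 for Rux over UV (2.41 to 2.61). The 88 UMIs of CON lay in 32 cells, 33 of them in 1 cell. Leaving out the 1% of FB-like cells with the most Hp UMIs took 34 cells in CON, so no CON UMI could remain. In UV it took 51 of 269 cells with an Hp UMI. UV over CON was then at least 6.03 on the log2 scale against a floor of 3 UMIs. That value follows from the cut and is not read as a larger difference. Rux over UV was 2.27. Of the FB-like cells, 0.952% in CON, 5.36% in UV and 13.7% in Rux had a Hp UMI, and after thinning 0.407%, 2.43% and 5.34%. LYM-like cells stood at 0.398%, 1.27% and 1.70%, or 0.0562%, 0.354% and 0.580% after thinning.

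Lcn2 encodes lipocalin-2, which withholds iron from bacteria by binding their siderophores. It had 6.01 CPM in CON (5.07 to 7.08), 24.4 CPM in UV (22.9 to 26.0) and 66.6 CPM in Rux (64.4 to 68.7). The log2 ratio was 2.02 for UV over CON (1.76 to 2.28) and 1.45 for Rux over UV (1.34 to 1.55). Lcn2 UMIs were found in 3.90%, 7.60% and 11.8% of FB-like cells, and in 1.46%, 3.13% and 4.91% after thinning, against 1.29%, 0.267% and 0.726% of thinned LYM-like cells. The CON share of FB-like cells was close to the LYM-like share, and the UV and Rux shares were above it.

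Orm1, which encodes the plasma carrier orosomucoid, had 28, 17 and 21 UMIs in the FB-like cells of the CON, UV and Rux libraries, at 1.18, 0.433 and 0.375 CPM. LYM-like cells had 1.28 CPM in CON, 0.668 CPM in UV and no UMI in Rux, which allows up to 1.34 CPM, so Orm1 was at background in FB-like cells and its log2 ratio of −1.43 for UV over CON is not read as a difference of fibroblasts.

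Serpina3n encodes a secreted inhibitor of serine proteases. Its level in FB-like cells was 149.5 CPM in CON (145 to 155), 238 CPM in UV (234 to 243) and 451 CPM in Rux (446 to 457). The log2 ratio was 0.67 for UV over CON (0.62 to 0.73) and 0.92 for Rux over UV (0.89 to 0.96). Unlike the serum amyloids it was broadly detected, in 37.4%, 54.3% and 63.6% of FB-like cells, and its UMIs were spread over cells, with 321 Rux cells needed for at least 50% of them.

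Ptx3 encodes long pentraxin 3, a soluble pattern-recognition protein made at the site of inflammation. It had 375 CPM in CON (368 to 383), 784 CPM in UV (775 to 793) and 566 CPM in Rux (560 to 572). The log2 ratio was 1.06 for UV over CON (1.03 to 1.10) and −0.47 for Rux over UV (−0.49 to −0.45). Ptx3 was the one abundant gene of the 8 with a lower level in Rux than in UV.

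FB-like cells were reclustered, again without the acute-phase genes, into 11 subclusters, of which 10 had at least 50 cells in every library. One of them held most of the Rux signal. FB subcluster 4, led by Adam12, Fabp4, Tnc, Il1rl1, Hpgd and Depdc5, had 56 cells in CON, 87 in UV and 1136 in Rux, so 88.8% of its cells came from the Rux library and it made up 22.9% of Rux FB-like cells. A cluster drawn mostly from 1 library may reflect that library and not a cell state, and with 1 library per condition these cannot be told apart. All 5 FB markers were detected in it in every library.

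Of the UMIs of Rux FB-like cells, subcluster 4 held 91.7% for Saa3, 90.9% for Hp, 78.7% for Lcn2, 70.5% for Saa1 and 57.5% for Serpina3n, against 25.7% for Ptx3. Saa3 there had 6.77 CPM in CON, 423 CPM in UV and 2161 CPM in Rux (2139 to 2183). The UV value rested on 1 cell with 321 of 429 UMIs. In Rux, 427 of the 1136 cells, or 37.6%, had a Saa3 UMI, against 8 of 87 cells in UV and 5 of 56 in CON. Hp had 58.2, 161 and 393 CPM in the same order, and 33 of the 43 UMIs in CON came from 1 cell. Lcn2 had 6.77, 12.8 and 165 CPM, and Serpina3n 156, 391 and 817 CPM. For all 4 genes the values rose in the order CON, UV, Rux inside this subcluster, which was singled out after its Rux signal was seen. For Lcn2 the CON and UV values rested on 5 and 13 UMIs, with overlapping intervals (2.20 to 15.8 and 6.83 to 21.9 CPM).

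The other FB-like cells gave a different picture. Saa3 had 54.8 CPM in CON, 76.9 CPM in UV and 90.8 CPM in Rux, and Serpina3n 149, 234 and 281 CPM. Hp had 1.95, 20.4 and 18.4 CPM, and Lcn2 5.99, 24.7 and 20.8 CPM. Outside subcluster 4 the UV and Rux libraries therefore stood close together for Hp and Lcn2, both well above CON. The log2 ratio for Rux over UV was 0.24 for Saa3, −0.15 for Hp, −0.25 for Lcn2 and 0.26 for Serpina3n, and 2 of the 8 genes, Saa1 and Saa2, were at least 2-fold higher, in place of 5, against 0.708% of 8197 genes in the same cells. Of these, Saa2 rested on few cells, since 3 Rux cells held 58 of its 83 UMIs outside subcluster 4 and 1 UV cell 20 of 39. The share of all genes required a mean of 10 CPM, which neither gene reached. Saa1 had 2.15 CPM in UV and 5.81 CPM in Rux, and Saa2 1.02 and 2.17 CPM, so the count and the share cover unlike genes. In Rux over CON 3 were higher (Saa2, Hp and Lcn2), in place of 6, against 2.18% of 8397 genes, and Saa2 was again under that minimum. With subclusters weighted by their shares in CON, Saa1 and Saa2 were again the 2 at least 2-fold higher in Rux than in UV. The share of all genes, with the same 10 CPM minimum, was 0.41% of 8298. The split by subcluster 4 was made after the data were seen. Under each of the other cell filters and clusterings tried, the subcluster with the most Saa3 UMIs in Rux was taken. That such a subcluster was found therefore follows from the choice. It held 86.7% to 93.2% of the Saa3 UMIs of Rux FB-like cells and drew 65.6% to 96.5% of its cells from Rux. Its size was less stable, at 7.55% to 23.8% of Rux FB-like cells. With up to 20% mitochondrial UMIs allowed, 41.96% of its cells were those of subcluster 4 and it also held 597 UV cells, while under the others 89.4% to 97.0% of its cells were.

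**Figure D2:**
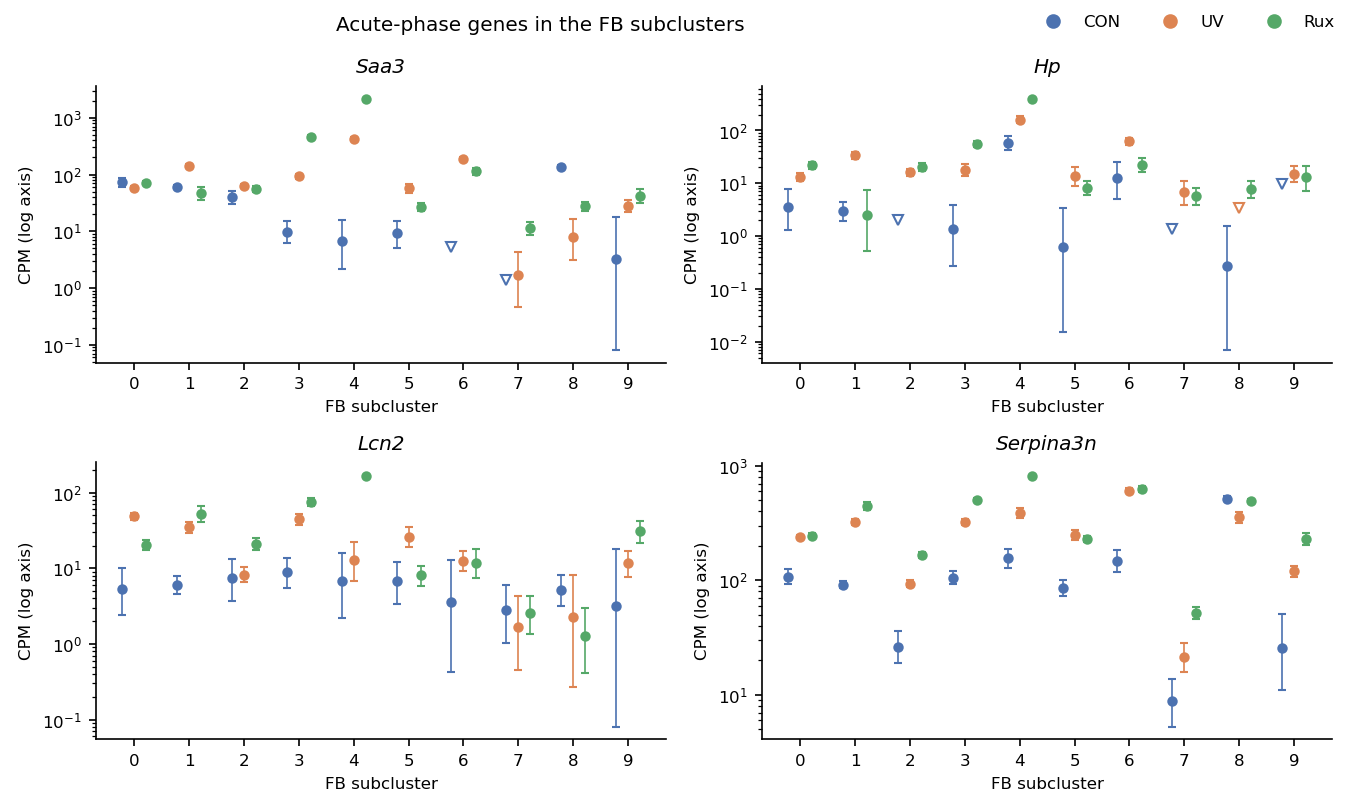
Levels of Saa3, Hp, Lcn2 and Serpina3n (CPM, log axis, bars are exact 95% counting intervals) in the 10 FB subclusters with at least 50 cells in every library, coloured by library, with open triangles at the 3-UMI floor where no UMI was found. Subcluster 4 in Rux is the highest point for Saa3 (2161 CPM), Hp (393 CPM) and Lcn2 (165 CPM).

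Among the 10 subclusters the UV and CON libraries differed in the same direction for several genes. Serpina3n was at least 2-fold higher in UV in 9 of the 10, with subcluster 8 the exception at 517 CPM in CON and 357 CPM in UV. Hp was at least 2-fold higher in UV in all 9 subclusters where either library passed 3 UMIs, at low levels of 6.73 to 161 CPM. In subclusters 2, 3, 5, 7 and 9 CON had 0 to 3 Hp UMIs, so they passed that minimum through UV alone. In subclusters 0, 1, 4 and 6 the log2 ratios were 1.81, 3.48, 1.45 and 2.23. Saa3 was at least 2-fold higher in UV in 7 and lower in 1, and Lcn2 higher in 6 and lower in 0. Saa3 in subclusters 6, 7 and 9 and Lcn2 in 6 and 9 also passed through UV alone. Rux over UV was less uniform, with Saa3 at least 2-fold higher in 4 subclusters (3, 4, 7 and 8) and lower in 2 (1 and 5). The second level of note was subcluster 3, led by Plcxd3, Pecam1 and Pde4c, where Saa3 had 9.85 CPM in CON, 92.7 CPM in UV and 467 CPM in Rux.

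Ptx3 was distributed differently from Saa3, Hp, Lcn2 and Serpina3n. In UV, 55.3% of its FB-like UMIs lay in subcluster 2, led by Dtna, Bmp8a and Limch1, where it had 1065, 1755 and 1316 CPM in CON, UV and Rux. It was higher in UV than in CON in 5 of 10 subclusters and lower in the other 5, and with subclusters weighted by their shares in CON the log2 ratio for UV over CON was −0.10 in place of 1.06. Subcluster 2 made up 6.48% of FB-like cells in CON, 22.0% in UV and 11.1% in Rux. In UV it also held 30 of the 39 Saa2 UMIs and 8 of the 17 Orm1 UMIs of FB-like cells.

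The genes were found together in single cells. Of the 936 Rux FB-like cells with a Saa3 UMI, 33.4% also had Lcn2, against 6.82% of the cells without Saa3, and 29.6% had Hp, against 10.1%. In UV, 32.5% of the 292 cells with Saa3 had Lcn2, against 6.05% of the rest. Saa3-positive cells were deeper in Rux, with a median of 13274 UMIs against 9541, and the part of depth in these shares was not tested. In CON the 83 cells with Saa3 showed 4.82% with Lcn2 against 3.87% in the rest, with overlapping intervals.

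Markers of other cell types were measured beside these values. The 5 neutrophil markers summed to 3.83 CPM in FB-like cells of CON, 3.57 CPM in UV and 21.2 CPM in Rux. In NEU-like cells they summed to 62690 to 95630 CPM. They summed to 28.4 CPM in subcluster 4 of Rux against 17.9 CPM in the other Rux FB-like cells. Of their 1189 UMIs in Rux FB-like cells, S100a8 held 410 and S100a9 685. Both are also on the list of other acute-phase proteins read below. Lcn2 and Hp are also made by neutrophils, the markers were highest in the library where both genes were highest, and their part in the result was not tested. Rux FB-like cells held 2.06 Hp UMIs per Lcn2 UMI, and NEU-like cells of Rux had 686 Hp and 1859 Lcn2 UMIs. Of the 5 adipocyte markers, 4 were detected in subcluster 4 of Rux, at a summed 1.12 CPM with Lep at 0. No FB-like cell carried 3 or more of them.

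Across all kept cells the source of each gene differed, and the libraries changed its order. FB-like cells held 77.0% of Saa3 UMIs in CON, 76.6% in UV and 92.0% in Rux, and 85.9%, 94.5% and 96.2% of Ptx3 UMIs. Hp came mostly from MYE-like cells in CON (55.1%) and from FB-like cells in Rux (77.0%). In UV, FB-like cells held 42.9% of Hp UMIs and unnamed clusters 41.7%. Within these, 4 cells with at least 3 adipocyte markers in a cluster led by Cidec held 855 Hp UMIs, which were 38.8% of all Hp UMIs of that library. Lcn2 came mostly from LEC-like cells in CON (82.1%) and UV (62.8%), and from FB-like cells in Rux (43.5%). Orm1 came from KS-like cells (suprabasal keratinocytes, 66.3%) and UF-like cells (upper hair follicle, 27.5%) in CON. FB-like cells were 31.2% of kept cells in CON, 49.0% in UV and 53.4% in Rux, so these shares moved with the make-up of the libraries too.

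**Figure D3:**
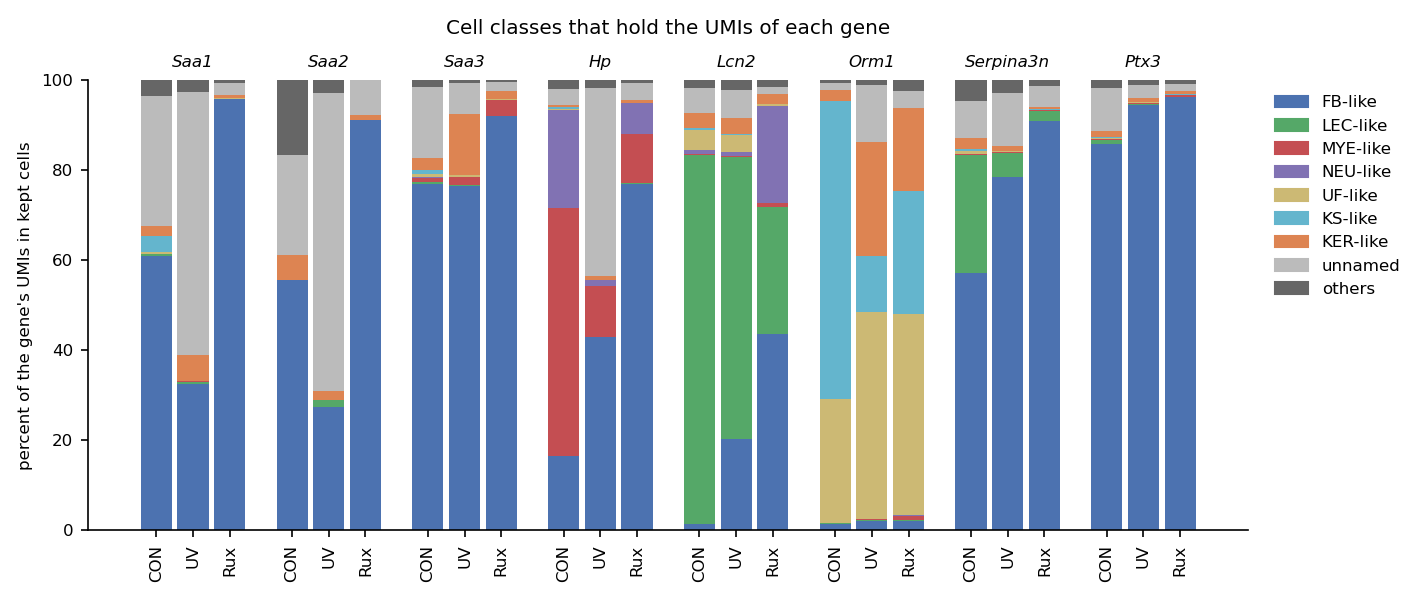
Share of the UMIs of each gene in kept cells (percent, stacked bars) held by each cell class in the CON, UV and Rux libraries. Lcn2 passed from 82.1% in LEC-like cells in CON to 43.5% in FB-like cells in Rux, and Orm1 lay in keratinocyte classes in all 3.

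MYE-like cells, a myeloid class led by the monocyte and macrophage genes Lyz2, Chil3, F13a1 and C1qb, numbered 210, 187 and 386 in CON, UV and Rux. They had Saa3 at 10.8, 65.6 and 493 CPM, the next highest Rux level after FB-like cells among the 11 classes that held 50 cells or more in each library. The log2 ratio for Rux over UV was 2.90 (2.59 to 3.25), close to the 3.12 of FB-like cells, and 28.8% of Rux MYE-like cells had a Saa3 UMI against 7.49% in UV. After thinning the shares were 17.3% and 4.52%. The UV sum was 83 UMIs, 34 of them in 1 cell. Hp in MYE-like cells was level by comparison, at 227 CPM in CON (202 to 255), 199 CPM in UV (175 to 225) and 332 CPM in Rux (312 to 352). The intervals of CON and UV overlapped.

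Saa3 was at least 2-fold higher in Rux than in UV in 10 of the 11 classes, all but KER-like cells (keratinocytes of no finer name), where it was 32.3 CPM against 17.2 CPM. LYM-like cells were among the 10. After thinning, the Rux share with a Saa3 UMI was 1.56% in IRS-like cells (inner root sheath and hair shaft), 1.58% in UF-like, 2.11% in LEC-like and 2.36% in SCH-like (Schwann) cells, all under the 2.45% of LYM-like cells, and the values of these classes are read as background. It was 2.47% in PCY-like (pericyte), 3.19% in VEC-like (vascular endothelial), 3.21% in KER-like and 3.90% in MC-like (mast) cells. FB-like cells with 9.59% and MYE-like cells with 17.3% stood well above. In KER-like cells of UV, 3 cells held at least 50% of the 596 Saa3 UMIs.

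NEU-like cells (neutrophils) were few, with 50 cells in CON, 22 in UV and 225 in Rux. Their Hp level was 904.5, 588 and 905 CPM. Lcn2 had 819 CPM in CON (669.6 to 991), 949.5 CPM in UV (684 to 1284) and 2452 CPM in Rux (2342 to 2566), so Rux lay above both, whose intervals overlapped.

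LEC-like cells (lymphatic endothelium) had the highest Lcn2 of the 11 classes in every library. It stood at 1408 CPM in CON (1379 to 1438), 684.5 CPM in UV (660.1 to 709.6) and 985 CPM in Rux (946 to 1025), in 424, 299 and 151 cells. The log2 ratio was −1.04 for UV over CON and 0.52 for Rux over UV, so UV was the lowest library here and the middle one in FB-like cells. Lcn2 was detected in 87.7%, 82.9% and 91.4% of LEC-like cells. Serpina3n followed the same order in this class, at 266, 153 and 249 CPM.

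UF-like cells held both Lcn2 and Orm1. Lcn2 had 68.9 CPM in CON (62.8 to 75.5), 43.5 CPM in UV (37.3 to 50.4) and 7.61 CPM in Rux (5.20 to 10.7), the reverse of the order in FB-like cells. The CON and UV values rested on few cells. In CON, 6 cells held at least 50% of the 467 Lcn2 UMIs, 123 of them in 1 cell. In UV, 4 cells held at least 50% of the 178 UMIs, so these intervals are too narrow. Orm1 had 89.0, 91.4 and 108 CPM in the 3 libraries. KS-like cells had Orm1 at 115, 108 and 132 CPM, with 45 cells in UV. Orm1 levels in both classes differed by less than 1.5-fold between libraries. In KS-like cells of CON, 6 of 742 cells held at least 50% of the 1453 Orm1 UMIs, 178 and 172 of them in 2 cells. The likeness of the KS-like levels therefore rests on few cells.

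**Figure D4:**
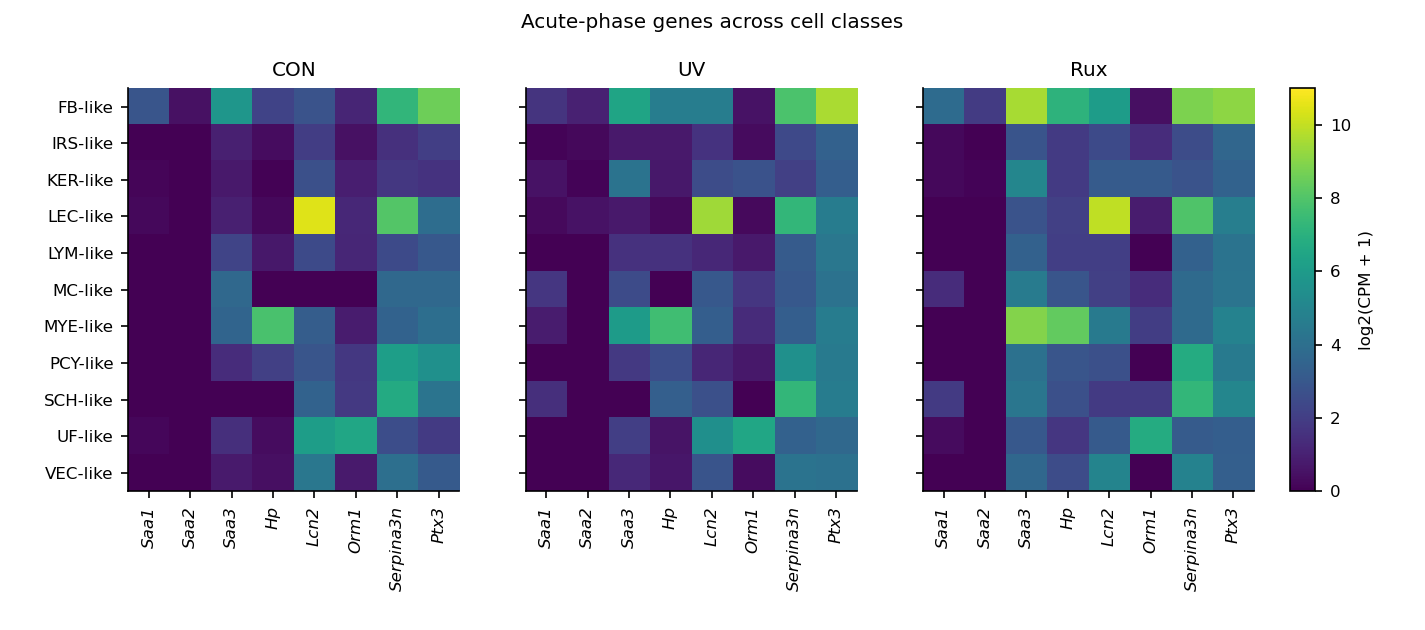
Level of each gene, as log2(CPM + 1), in the 11 cell classes with at least 50 cells in every library, 1 panel per library. Bright cells mark Lcn2 in LEC-like cells in every library, Ptx3 and Serpina3n in FB-like cells, Hp in MYE-like cells, and Saa3 in FB-like and MYE-like cells in Rux.

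The genes most like Saa3 were sought by Pearson correlation of log2(CPM + 1). Over 33 sums of a class and a library these were Surf4 (0.75), Ptgs2 (0.75), Hp (0.74), Dtnbp1 (0.72) and Il1r2 (0.71). Over 30 sums of an FB subcluster and a library they were Lcn2 (0.71), Serpina3n (0.71), Il3ra (0.70), Fam102b (0.67) and Ctsb (0.65). The points share 3 libraries and their depths, so the values describe likeness only. Within FB-like cells Hp stood at 0.62, Saa1 at 0.255 and Ptx3 at 0.22.

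The pathway that raises these genes was read in FB-like cells. Among its inducing cytokines, Il6 had 996 CPM in CON, 1080 CPM in UV and 462 CPM in Rux, a log2 ratio of 0.12 for UV over CON and −1.23 for Rux over UV (−1.25 to −1.21). It was lower in Rux than in UV in 10 of 10 subclusters. With subclusters weighted by their shares in CON, the Il6 ratio was −0.63 for UV over CON and −1.21 for Rux over UV. Lif, a cytokine of the same family, had 37.0, 56.9 and 88.7 CPM, and its UV over CON ratio of 0.62 was −0.49 when weighted. Il1b had 2.23, 1.61 and 7.45 CPM. Lif was higher in Rux than in UV in 9 of 10 subclusters and Il1b in 10 of 10. Their weighted Rux over UV ratios were 0.91 and 1.93. Of 10 inducing cytokines, 2 passed 10 CPM. Il6 and Saa3 thus stood in opposite order in the UV and Rux libraries, while Lif and Il1b stood in the same order as Saa3.

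The receptors of these cytokines were counted at 2-fold as well. All 11 passed 10 CPM, and at 2-fold 1 was higher in UV than in CON, Tnfrsf1b, a receptor of tumour necrosis factor, at 26.7, 65.5 and 71.1 CPM, whose UV over CON ratio was 1.30, or 0.68 with subclusters weighted as in CON. Between Rux and UV, 0 of the 11 were 2-fold apart in either direction, and their median log2 ratio was −0.08. Of all genes with a mean of 10 CPM or more, 0.722% were that much higher and 1.66% lower. The count of 0 among 11 is near those shares. For UV over CON, 2.37% of all genes were at least 2-fold higher.

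Of 16 signalling and transcription factors, 14 passed 10 CPM, and 0 were 2-fold apart between Rux and UV. This is near the shares of all genes, 0.722% higher and 1.66% lower. Stat3 had 501 CPM in CON, 384 CPM in UV and 279.8 CPM in Rux, and Cebpb 1471, 973 and 838 CPM. Cebpd, the C/EBP factor that is itself a target of STAT3, had 1473, 647 and 354 CPM, a log2 ratio of −1.19 for UV over CON and −0.87 for Rux over UV, and was lower in Rux than in UV in 10 of 10 subclusters. Weighted as in CON these ratios were −0.70 and −0.66, so the UV value was no longer past 2-fold. Nfkbiz, an NF-kB cofactor needed for Lcn2 transcription, had 714, 411 and 430.2 CPM. Over all FB-like cells, all 4 factors were highest in CON. In FB subcluster 4 this held for Cebpd alone, at 564.5, 451 and 265 CPM. There Stat3 had 378, 469 and 242 CPM, Cebpb 686, 628.5 and 763 CPM, and Nfkbiz 395, 374 and 478 CPM. With subclusters weighted as in CON, the UV over CON ratio was −0.06 for Stat3, −0.63 for Cebpb and −0.43 for Nfkbiz.

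Feedback inhibitors split. Socs3, which STAT3 induces and which blocks its receptors, had 902 CPM in CON, 428 CPM in UV and 130.4 CPM in Rux, a log2 ratio of −1.71 for Rux over UV (−1.75 to −1.67). Socs1 had 95.9, 47.8 and 17.7 CPM, and both were lower in Rux than in UV in 10 of 10 subclusters. Tnfaip3, an NF-kB target that restrains NF-kB signalling, had 295, 132 and 368 CPM, a log2 ratio of 1.48 for Rux over UV, and was higher in 10 of 10 subclusters. Zfp36, which destabilises cytokine mRNAs, had 2626, 970.3 and 957 CPM. Of 6 inhibitors past 10 CPM, 2 were at least 2-fold lower and 1 higher in Rux than in UV. Of all genes with a mean of 10 CPM or more, 1.66% were that much lower and 0.722% higher. Subcluster 1, led by Gadd45g, Rrad, Socs3, Zfp36 and Egr1, made up 39.6% of FB-like cells in CON, 10.9% in UV and 2.72% in Rux. With subclusters weighted by their shares in CON, the differences between UV and CON fell short of 2-fold for all 4 of these inhibitors. Unlike the acute-phase genes, the inhibitors and other pathway genes were not kept out of the clustering, and Socs3 and Zfp36 lead subcluster 1. Weighting can therefore shrink their ratios by construction. The UV over CON ratio was −0.35 for Socs3 in place of −1.08, −0.36 for Socs1 in place of −1.004, −0.53 for Tnfaip3 in place of −1.16 and −0.51 for Zfp36 in place of −1.44. The weighted Rux over UV ratio was −2.28 for Socs3 and −2.11 for Socs1, and 0.87 for Tnfaip3, which was then under 2-fold.

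**Figure D5:**
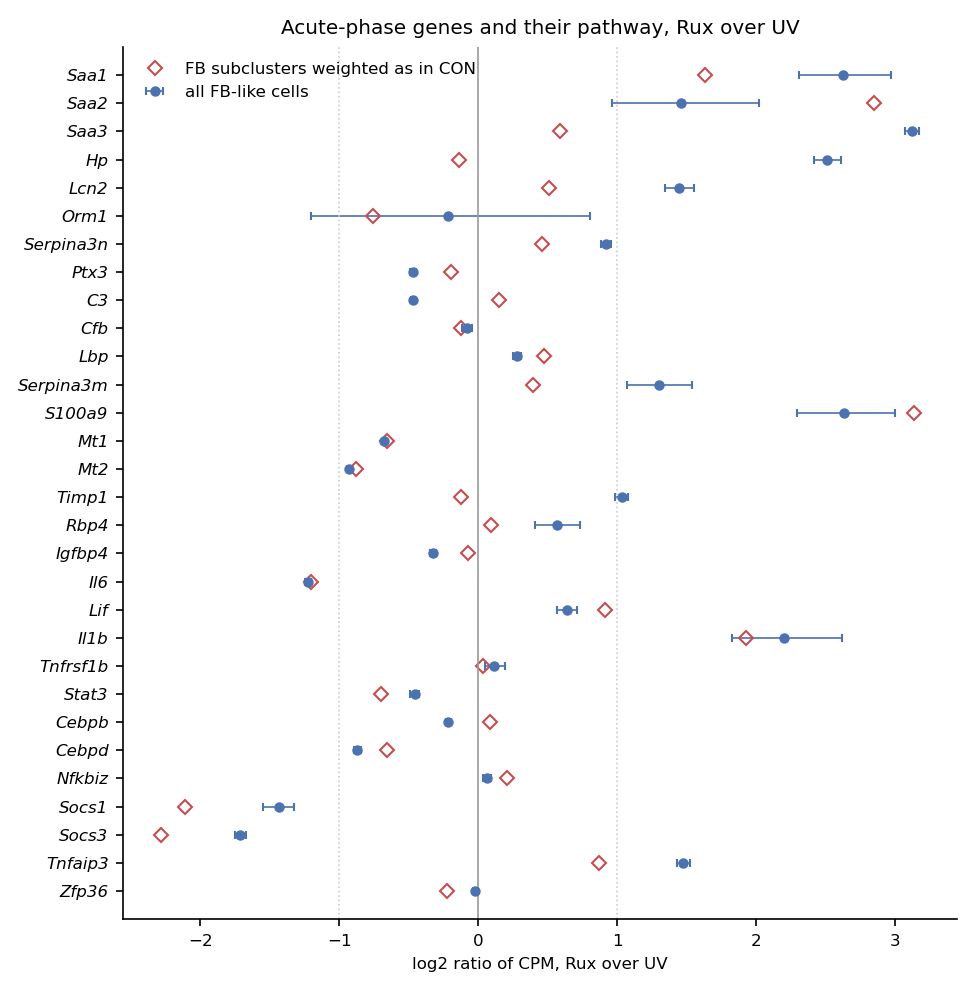
Log2 ratio of CPM in FB-like cells, Rux over UV, for the acute-phase genes and the named genes of the pathway, with filled points for all FB-like cells (bars are exact 95% counting intervals), open diamonds for FB subclusters weighted by their shares in CON, and dotted lines at 2-fold. Saa3 (3.12) and Hp (2.51) lie to the right with S100a9 (2.63) over all FB-like cells, and Socs3 (−1.71), Socs1 (−1.44) and Il6 (−1.23) to the left.

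Other acute-phase proteins were read from a list of 34 genes, of which 12 passed 10 CPM in FB-like cells. Their median log2 ratio was 0.34 for UV over CON, −0.05 for Rux over UV and 0.92 for Rux over CON, beside −0.11, 0.03 and −0.08 over all genes. The complement components C3, at 765, 2210 and 1599 CPM, and Cfb, at 115, 235 and 223 CPM, were at least 2-fold higher in UV than in CON. With subclusters weighted as in CON neither was, at log2 ratios of 0.70 for C3 in place of 1.53 and 0.73 for Cfb in place of 1.04, and C3 turned from −0.47 to 0.15 in Rux over UV. Lbp, which presents bacterial lipopolysaccharide, had 182, 328 and 398 CPM. At least 2-fold higher in Rux than in UV were 3 genes, Serpina3m (5.05, 4.84 and 11.95 CPM), Timp1 (109, 143.5 and 293 CPM) and S100a9 (1.98, 1.96 and 12.2 CPM), where 0.722% of all genes with a mean of 10 CPM or more lay as far apart. Serpina3m and S100a9 passed the 10 CPM minimum in Rux alone, so the minimum favoured their difference. The share of all genes used another minimum, a mean of 10 CPM over UV and Rux, which only Timp1 of the 3 reached. Weighted as in CON, Timp1 turned from 1.03 to −0.12 and Serpina3m was at 0.39 in place of 1.30, while S100a9 was at 3.14. S100a9 is also a neutrophil marker, and S100a9 and S100a8 held most UMIs of the neutrophil markers in Rux FB-like cells. The zinc-binding metallothioneins Mt1, at 8129, 4727 and 2954 CPM, and Mt2, at 4094, 3358 and 1759 CPM, went the other way, with CON the highest and Rux the lowest. Of 8 negative acute-phase proteins, 3 passed 10 CPM, among them Rbp4 at 25.1, 11.3 and 16.8 CPM and Igfbp4 at 336, 703 and 561 CPM. Between Rux and UV 0 were 2-fold apart. In UV over CON Igfbp4 was at least 2-fold higher and Rbp4 lower, against 2.37% and 2.19% of all genes. Weighted as in CON neither was, at log2 ratios of 0.81 and −0.61. Of 12 receptors and binding partners of acute-phase proteins, 4 passed 10 CPM and 0 were 2-fold apart in any of the comparisons. Counts of 0 among so few genes lie near the shares of all genes, which ran from 0.722% to 3.55% over the comparisons and directions.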

How the data were processed

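Single-cell suspensions of full-thickness dorsal skin were profiled with 10x Genomics 3′ v3.1 chemistry, 1 library each for CON, UV and Rux. The authors deposited, per library, raw UMI counts for 32285 genes (mm10, GRCm38) and the called cells. The labels name Cell Ranger 6.1.2 and Seurat 5.3.0, while the file headers name Cell Ranger 7.0.0, a series that counts intronic reads by default, so levels may include unspliced RNA.

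Cells were kept when 200 or more genes were detected and no more than 10% of UMIs were mitochondrial, and those with the highest Scrublet scores (Scanpy 1.11.5) were removed as doublets at 0.8% per 1000 deposited cells. Kept cells of CON, UV and Rux numbered 10777, 10231 and 9299, with 140555663, 115831599 and 115564201 UMIs. Seurat 5.3.0 in R 4.3.3 clustered them together on 2000 variable genes and 30 principal components at resolution 1.5, without batch correction and without 50 acute-phase genes, which gave 43 clusters. FB-like cells were reclustered on 20 components at resolution 0.5. A cluster was named when at least 3 markers of a class were each detected in at least 10% of its cells and that class led the others.

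UMI counts were summed per class and library and scaled to CPM. Levels carry exact Poisson intervals and shares of cells Clopper-Pearson intervals. A log2 ratio of CPM was taken with 0.5 UMI added to each sum and an exact conditional interval (SciPy 1.17.1). No test was made, with 1 library per condition. A count of 0 was read as up to 3 UMIs. Thinning gives the expected share at 2000 UMIs per cell. The intervals were checked on simulated Poisson counts, the model they assume, so the check does not cover UMIs that sit in few cells.

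The members and gene lists were chosen with earlier results of these data known. Genes named besides the 8 are those of the lists with at least 10 CPM in FB-like cells of a library and a log2 ratio of at least 1 in size, 7 genes of the pathway in any case, the 5 genes most like Saa3 in each of 2 ways, and markers. Alternatives changed the cell filter, doublet removal, resolution, scaling, cell weights, clustering genes and the make-up of FB-like cells. Another 3, adding an unnamed cluster led by Gdf10 and Mgp, leaving out FB subcluster 4 and leaving out the 1% of cells with the most UMIs of a gene, were added after seeing the data. Promoters came from RefSeq and coordinates from GENCODE M21.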

Additional observations from a re-analysis of the deposited data

Results flagged for a closer look

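Some comparisons of 2 libraries ran at least 2-fold one way in FB-like cells and at least 2-fold the other way in another class. With 1 library per condition the difference between the classes was not tested. For UV over CON, the log2 ratio of Lcn2 was 2.02 in FB-like cells, −1.04 in LEC-like cells and −1.61 in VEC-like cells. In VEC-like cells this was 54 UMIs in CON and 22 in UV, or 19.5 and 6.31 CPM. LYM-like cells, taken as background, also stood lower in UV, at 4.49 CPM in CON and 1.34 CPM in UV on 7 and 2 UMIs (log2 ratio −1.53, −5.05 to 0.64), and PCY-like cells were at −2.11 on 8 and 2 UMIs. The part of background in the VEC-like value was not tested. For Rux over UV, Lcn2 was at 1.45 in FB-like and −2.50 in UF-like cells, and for Rux over CON at 3.46 and −3.16. In UF-like cells, 6 cells of CON and 4 cells of UV held at least 50% of the Lcn2 UMIs of their library. For UV over CON, Ptx3 was at 1.06 in FB-like and −1.08 in PCY-like cells, where its level was 45.6 CPM in the CON library against 21.4 CPM in the UV library. Of the 57 UMIs in PCY-like cells of CON, 16 and 15 came from 2 cells, and the FB-like ratio was −0.10 with subclusters weighted as in CON.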

How the results depend on the processing

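No paired analysis was possible because each condition had 1 library, and leaving out a replicate was not possible for the same reason. Weighting FB subclusters as in CON, or leaving out FB subcluster 4 (added after seeing the data), lowered the count of genes at least 2-fold higher in Rux than in UV from 5 to 2, and leaving out subcluster 4 lowered that in Rux over CON from 6 to 3. Without the 1% of FB-like cells with the most UMIs of a gene, also added later, the count of lower genes went from 2 to 0 in UV over CON and from 1 to 0 in Rux over CON. This followed from its construction, since Saa1 had no UMI left in CON and UV and Orm1 none in any library, so no ratio could be taken. Hp likewise had no UMI left in CON. The cut also took a larger part of the Saa3-positive cells in CON than in UV. The other counts of members in FB-like cells stayed within 1.5 times under every alternative run, though not with the same genes: weighted, Serpina3n passed 2-fold in UV over CON (1.11) and Saa2 (0.22) and Ptx3 did not. Directions turned for Ptx3 in UV over CON (−0.10 when weighted) and in Rux over CON (−0.29 in place of 0.59, weighted), for Orm1 in Rux over UV (0.26 in place of −0.22 with equal weight per cell), for Hp in Rux over UV (−0.14 weighted, −0.15 without subcluster 4), for Lcn2 in Rux over UV (−0.25 without it) and for Saa1 in Rux over CON (−0.13 and −0.21). The count of 10 classes with Saa3 at least 2-fold higher in Rux than in UV was 7 without doublet removal and 7 at resolution 0.8. Classes were named and counted anew under each clustering, so these counts need not be out of the same number of classes. The share of all genes past 2-fold depended on the minimum level: with at least 10 UMIs in place of 10 CPM it was 9.63% higher and 7.53% lower in UV over CON, 2.74% and 8.86% in Rux over UV, and 6.55% and 11.4% in Rux over CON. Median-of-ratios scaling raised the log2 ratios of all genes. Those under total scaling stood at −0.11, −0.04 and −0.15 units relative to it in UV over CON, Rux over UV and Rux over CON. The cause of the other moves was not tested. Depth limits Saa1, Saa2 and Orm1, which had 10 to 752 UMIs in FB-like cells.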

Other observations

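A low-UMI cluster led by Gdf10 and Mgp, which stayed unnamed at a median of 1853 to 2520 UMIs per cell, had Saa3 at 116 CPM in CON, 36.1 CPM in UV and 282.5 CPM in Rux, and Serpina3n at 239.9, 683.5 and 818 CPM. Another unnamed cluster, led by Lingo2, Adgrb3 and Dcc, had 490 Saa3 UMIs in Rux, at 403 CPM, against 3 UMIs in CON and 18 in UV. In the same cluster Saa2 had 1, 55 and 13 UMIs in CON, UV and Rux. The Cidec-led cluster had Lcn2 at 419.9 CPM in CON. Over all kept cells, Lcn2 had 74.5 CPM in CON, 40.8 CPM in UV and 74.1 CPM in Rux, while Ptx3 had 74.0, 281 and 285 CPM, so neither whole-skin value shows the order seen in FB-like cells.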
